A study of Saccharomyces cerevisiae with 24 samples.

Results

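The pheromone signalling pathway of budding yeast was followed through 10 of its genes: GPA1, STE4 and STE18, which encode the subunits of the G protein, STE5, the scaffold of the kinase cascade, FUS3, its MAP kinase, the regulators FAR1 and SST2, and the transcription factors STE12, KAR4 and TEC1. They were taken by locus name, and 7 of the 10 were among the 4442 gene pairs in the count tables. STE4 (YOR212W), STE5 (YDR103W) and STE12 (YHR084W) were not analysed here beyond their upstream sequence. All 7 genes present had fewer reads in the diploid, so none of them could stand for the genes of the pathway that are not repressed. The comparison was made instead with other genes of the same pathway.

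Messenger RNA was sequenced from 2 kinds of Saccharomyces cerevisiae culture, with 12 libraries each, and reads were assigned to the BY or the RM allele at sites that differ between these strains. The hybrid, WL201, was an a/alpha diploid made from BY4741, a laboratory strain, and RM11-1alpha, a strain of vineyard origin. The co-culture was a mixture of 2 haploid strains of mating type a, BY4741 and RM11-1a, grown in the same flask. Each group had 4 technical replicate cultures, started at an OD600 of 0.1 and harvested at 1.0 (30 °C, 250 rpm), so the groups differed in ploidy, in mating type and in whether the alleles shared a cell. The libraries of a group are not tied to its cultures in the labels, and the hybrid is a single cross.

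A haploid a cell meets a partner by its pheromone. The pheromone binds a receptor, the receptor frees the beta and gamma subunits Ste4 and Ste18 from the alpha subunit Gpa1, and these recruit the scaffold Ste5, on which the kinases Ste11, Ste7 and Fus3 act in turn. Fus3 switches on the transcription factor Ste12 and the cell cycle inhibitor Far1, while Sst2 returns Gpa1 to its resting state. An a/alpha diploid does not mate, and in it the a1 and alpha2 proteins bind together to an operator and repress genes that are used only by haploid cells.

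The operator is shown here because it is the known site of that repression. It was searched as TGTNNNNNNNNACATCA on both strands of the 500 bases before each start codon in the R64 reference genome, which is of the S288C background to which BY4741 belongs. The match is printed 5′ to 3′ with 2 flanking bases on each side, with the 9 letters that the motif fixes in capitals.
GPA1 (VIII:115254-115274, minus strand): caTGTtaaaaagcACATCAat
STE5 (IV:658144-658164, plus strand): ctTGTtaatttacACATCAtg
STE18 (X:585969-585989, minus strand): ctTGTtaaatattGCATCAaa
FUS3 (II:192270-192290, minus strand): ccTGTaaaaaaccGCATCAtc
The matches of GPA1 and STE5 hold every fixed letter, and those of STE18 and FUS3 differ from the motif at 1 letter. FUS3 holds 3 such matches and STE5 another beside its full one, and the FUS3 match nearest to the start codon is shown. They lie 339 to 355 bases before the start codon of GPA1, 188 to 204 before that of STE5, 81 to 97 before that of STE18 and 163 to 179 before that of FUS3. Across the genome the full motif stood in 43 of 6006 such windows (0.72%), and with 1 mismatch in 871 (14.5%). Among the 10 listed genes it stood in 2, and with 1 mismatch in 4. Windows of FAR1, SST2, KAR4 and TEC1 held no match at either level, which says only that these letters are not in these windows.

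The pheromone response element, TGAAACA, to which Ste12 binds, was present before 7 of the 10 genes: STE4, STE18, FUS3, STE12, SST2, KAR4 and TEC1. It stood in 722 of the 6006 windows (12.02%). The element is not particular to the members. It also stood before 7 of 7 listed a cell genes, 12 of 18 pheromone-induced genes and 5 of 10 genes of pheromone maturation. Other signalling genes of the pathway held it in 4 of 16 windows. FUS3 held it at 150 to 156 bases before its start codon, next to the operator-like match, and KAR4 held it at 94 to 100 and at 139 to 145. The site CATTCT of Tec1 was found before FUS3 and FAR1, and in 28.8% of all windows. These matches describe the reference sequence, and no binding was measured.

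**Figure D1:**
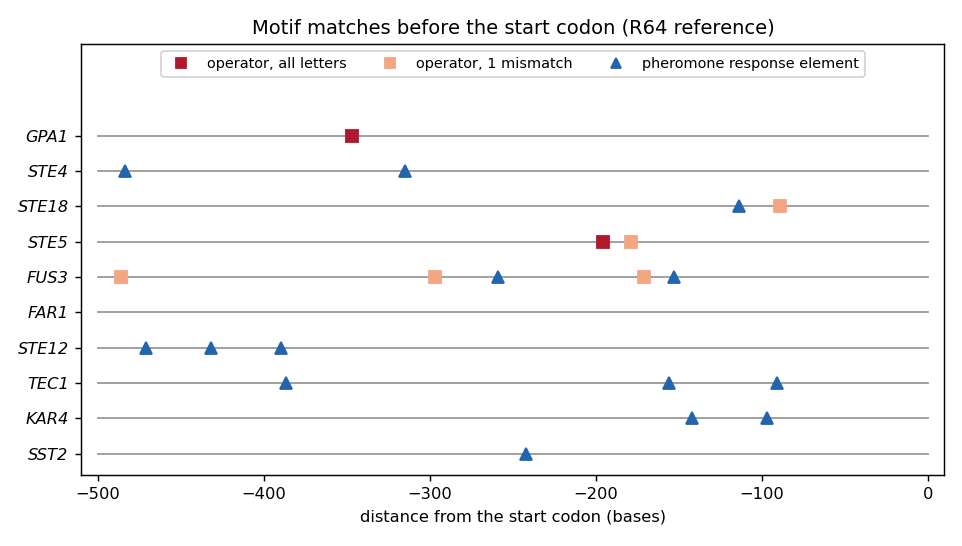
Positions of motif matches in the 500 bases before the start codon of each listed gene in the R64 reference, with the distance from the start codon on the x axis and a line per gene. Red squares are the operator with all letters, light squares the operator with 1 mismatch and triangles the pheromone response element. GPA1 and STE5 carry the full operator, and FAR1 carries neither motif.

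The libraries held 165503 to 232428 reads in the hybrid and 199838 to 227175 in the co-culture. Within a group, libraries that did not differ beyond sampling noise were summed, which left 8 summed replicates of the hybrid and 4 of the co-culture. The 8 outnumber the 4 cultures, so some share a culture. For the members, p-values measure mostly counting error. The spread beyond it in the fits was small (common dispersion 0.0018 for totals and 9.77e-05 for each allele ratio) and may be technical. Spread between cultures was not measured. Genes that mark a cells checked the labels, since 5 of 7 were present and their summed level was 9972 to 10920 CPM (counts scaled to a common library size with TMM) in a co-culture library and 95.3 to 171 in a hybrid library. Of the alpha cell markers 2 of 4 were present, STE3 with 3 reads in each group, and their sum was 0 to 19.8 CPM in the co-culture and 4.4 to 20.9 in the hybrid. The 6 early meiosis genes summed to 262 to 345 CPM in the co-culture and 121 to 192 in the hybrid, of which IME4 made up most (mean 264 and 108 CPM), and IME1 stood at 15.9 and 19.2. The strand of the IME4 reads is not known.

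Total expression, the sum of both alleles, asked how the pathway differed between the a/alpha hybrid and the a haploids. The 5 members with enough reads for the test were lower in the hybrid, by 7.16-fold (SST2) to 24.8-fold (GPA1) where a fold could be fitted, and FUS3 was all but without reads there. In this test 60.4% of the 2793 gene pairs passed, 30.9% were lower in the hybrid, and 0.859% were lower by more than 2 on the log2 scale. A call of lower is therefore common here. All 5 lie past the latter size, where 24 gene pairs stand in all. GPA1, TEC1 and FUS3 reached the minimum of 10 reads per library through the co-culture alone, so that 5 of 5 were lower is in part fixed by the filter and supports nothing. FAR1 and SST2 reached it in both groups. With the minimum set on the mean of both groups together, the same 5 were tested and called lower. GPA1, TEC1 and FUS3 still reach that mean through their co-culture reads, so this does not remove the selection. The 5 ranked 2 (FUS3), 6 (GPA1), 10 (FAR1), 12 (TEC1) and 15 (SST2) from the lowest log2 fold. In bulk RNA, fewer cells of a type and less RNA per cell cannot be told apart. The levels of the a cell markers moved with the members, and their part in the result was not tested.

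GPA1 (YHR005C, VIII:113499-114917 in R64, minus strand) encodes the alpha subunit, which holds the pathway at rest until pheromone arrives. Hybrid libraries held 1 to 8 GPA1 reads each (27 in all), and co-culture libraries 43 to 66 (651 in all). Its levels were 4.60 to 15.7 CPM in the hybrid (median 8.76, n = 8), and 199, 272, 273 and 264 CPM in the co-culture. Every co-culture sample stood far above every hybrid sample. The log2 fold was -4.63 (SE 0.28, 95% interval -5.20 to -4.06, edgeR quasi-likelihood test with Benjamini-Hochberg adjustment, adjusted p = 6.47e-35).

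STE18 (YJR086W, X:586068-586400, plus strand) encodes the gamma subunit, a short protein whose coding sequence spans 333 bases. It had 1 read in the 12 hybrid libraries together and 62 in the co-culture libraries, where each had 2 to 8. Its co-culture levels were 23.1, 23.4, 29.6 and 22.0 CPM, and 7 of the 8 hybrid samples were at 0. The scaled co-culture reads were 65.9 times those of the hybrid, with a counting interval of 11.4 to 2643. Ratios of this kind carry exact 95% intervals that cover counting error only. STE18 was below the minimum of 10 reads per library for the test, and when that minimum was dropped it was lower in the hybrid (adjusted p = 8.93e-14, edgeR quasi-likelihood test). In that fit 22.4% of 4430 gene pairs were lower.

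FUS3 (YBL016W, II:192451-193512, plus strand) encodes the MAP kinase that carries the mating signal into the nucleus. A single read came from all 12 hybrid libraries, while 377 came from the co-culture, with 27 to 36 in each library. The levels were 167, 155, 153 and 142 CPM in the co-culture, whereas 7 of the 8 hybrid samples stood at 0 and the highest was at 4.60 CPM. The scaled ratio was 401 with a counting interval of 71.4 to 15860, and the edgeR quasi-likelihood test gave an adjusted p of 1.91e-31. A fitted fold on 1 read depends on the prior count, so the ratio of reads is given in its place.

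FAR1 (YJL157C, X:123836-126328, minus strand), the inhibitor that halts the cell cycle before mating and marks the site of growth towards a partner, kept more of its level. Its 306 hybrid reads gave 94.4 to 143 CPM (median 120, n = 8), and its 2617 co-culture reads gave 1050, 1082, 1051 and 1050 CPM. The log2 fold was -3.18 (SE 0.09, 95% interval -3.35 to -3.00, adjusted p = 4.77e-48 by edgeR), which is 9.04-fold lower in the hybrid. The groups did not overlap, and every hybrid library still held 13 to 35 FAR1 reads.

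SST2 (YLR452C, XII:1039270-1041366, minus strand) encodes the regulator that speeds GTP hydrolysis by Gpa1 and so makes cells recover from pheromone. Over all libraries 163 hybrid and 1105 co-culture reads were counted. Levels were 41.4 to 77.9 CPM in the hybrid (median 59.8, n = 8) against 458, 466, 434 and 431 CPM in the co-culture. The groups were apart, with a log2 fold of -2.84 (SE 0.12, 95% interval -3.08 to -2.60, adjusted p = 1.52e-36 by edgeR).

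Of the transcription factors, TEC1 (YBR083W, II:409169-410629, plus strand) directs Ste12 to genes of filamentous growth and KAR4 (YCL055W, III:27929-28936, plus strand) directs it to genes of nuclear fusion. For TEC1, 46 hybrid and 338 co-culture reads were counted. Its levels were 10.8 to 28.6 CPM in the hybrid (median 17.5, n = 8) and 130, 128, 154 and 132 CPM in the co-culture. The log2 fold was -2.94 (SE 0.23, 95% interval -3.40 to -2.49, adjusted p = 6.11e-23 by edgeR), with no overlap. For KAR4 a single hybrid read was counted against 76 co-culture reads, 3 to 13 in each library. Its co-culture levels were 23.1, 37.1, 28.4 and 24.5 CPM, above all hybrid samples. Its scaled ratio was 80.7 with a counting interval of 14.1 to 3230, and without the read minimum it was lower in the hybrid at an adjusted p of 2.95e-16 (edgeR).

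**Figure D2:**
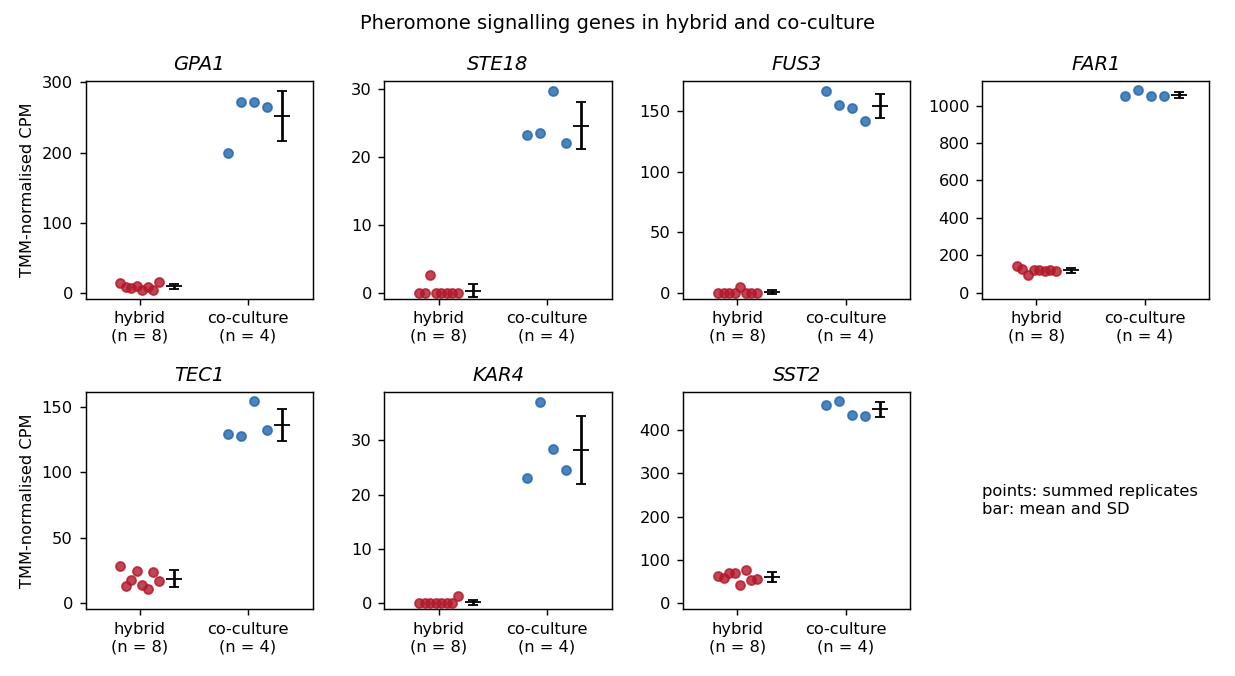
TMM-normalised CPM of each member present (y axis, a separate linear scale for each gene) in the summed replicates of the hybrid (red, n = 8) and of the co-culture (blue, n = 4), with the mean and SD beside them. The groups are apart in every panel, and STE18, FUS3 and KAR4 are at 0 in 7 of 8 hybrid samples.

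The groups of all 5 tested members did not overlap, which held for 17.9% of gene pairs in the lower direction. GPA1, TEC1 and FUS3 entered the test through the co-culture alone, so this count is in part fixed by the filter and supports nothing. Among themselves the members differed in how much was left. The 95% interval of GPA1 did not reach those of FAR1, TEC1 and SST2, and the intervals of FAR1, TEC1 and SST2 overlapped. STE18, FUS3 and KAR4 had 1 hybrid read each, and their counting intervals begin at 11.4, 71.4 and 14.1, so only FUS3 can be placed beyond GPA1, whose interval on the same scale was 17.4 to 39.2. With 1 read in 2556935, the hybrid data cannot tell a low level of these genes from none. Levels were not compared between genes, since the number of sites that differ between the strains is not known for each gene. None of the members overlaps another annotated gene in R64.

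**Figure D3:**
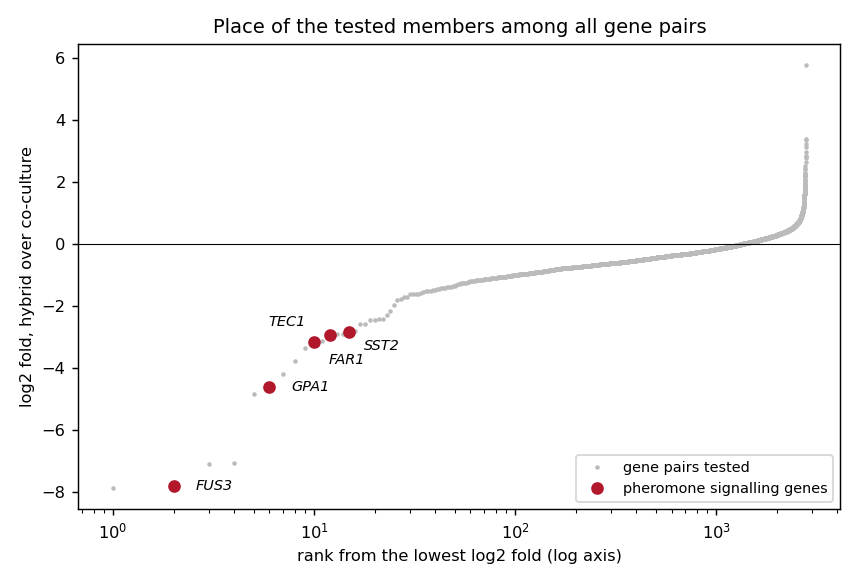
The log2 fold of total reads, hybrid over co-culture, of the 2793 gene pairs tested (y axis) by their rank from the lowest (x axis, log scale). The 5 tested members, in red, are at ranks 2 to 15.

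The other genes of the pathway are shared with diploid cells, where many of them also serve growth, polarity or osmotic sensing. Of 16 listed, 13 were present and 11 were tested: 3 were higher in the hybrid, 4 were lower and 4 did not pass. Their median log2 fold was 0.13, against 0.02 for all gene pairs tested and -3.18 for the 5 members. The background was 29.5% higher and 30.9% lower. The 4 lower genes were KSS1, the MAP kinase related to Fus3 (-0.83, SE 0.22), AKR1, a palmitoyltransferase that holds the pathway in check (-0.80, SE 0.13), CDC42, the GTPase of cell polarity (-0.76, SE 0.08) and DIG1, an inhibitor of Ste12 (-0.68, SE 0.11). Their adjusted p-values by edgeR were 0.000553, 2.34e-07, 1.62e-12 and 4.05e-07. KSS1, with 84 hybrid and 140 co-culture reads, entered the test through the co-culture alone, so its call of lower is in part fixed by the filter. None of the 95% intervals of these 11 genes reached those of the members, since the lowest bound was -1.26 (KSS1) and the highest bound of a member was -2.49 (TEC1).

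The kinases that stand directly above Fus3 were looked at by name after their values were seen. STE11 had 331 hybrid and 270 co-culture reads, with a log2 fold of 0.20 (95% interval -0.06 to 0.45, adjusted p = 0.182 by edgeR). STE7, which phosphorylates Fus3, had 175 and 138 reads, and its log2 fold was 0.26 (95% interval -0.08 to 0.59, adjusted p = 0.181). STE20, which activates Ste11, was at 0.17 (SE 0.07, adjusted p = 0.0376), and this call ended with DESeq2 (p = 0.14) and with the trend on base composition removed (p = 0.619). STE50, the adaptor of Ste11, was at 0.57 (SE 0.23, adjusted p = 0.0235), and CDC28, the kinase of the cell cycle that Far1 inhibits, was at 0.34 (SE 0.12, adjusted p = 0.0136). Both of these calls were also lost with DESeq2, at 0.141 and 0.0611. STE50, with 136 hybrid and 85 co-culture reads, entered the test through the hybrid alone, so its call of higher is in part fixed by the filter.

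Of 18 genes known to be induced by pheromone, 14 were present and 4 had enough reads. PRM5, which entered the test through the co-culture alone (28 hybrid and 149 co-culture reads), was at -2.46 (SE 0.30), and AGA1, the anchor subunit of agglutinin, at -1.99 (SE 0.11), with adjusted p-values by edgeR of 2.67e-13 and 8.89e-28. PRM10 too entered through the co-culture alone, with 102 hybrid and 138 co-culture reads. It was also called lower (-0.51, SE 0.20, adjusted p = 0.0209), but stood at 0.06 once the trend on base composition was removed and lost its call without TMM scaling. PCL2 was at -0.33 and did not pass, and with that trend removed it passed at -0.55. FUS1, a target of the pathway at cell fusion, had 2 hybrid reads and 20 co-culture reads.

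All 5 tested genes of pheromone maturation were lower in the hybrid, of 7 present and 10 listed, with a median of -0.39, where 30.9% of all gene pairs were lower. RAM1 (-0.83, SE 0.14), RAM2 (-0.57, SE 0.15), STE24 (-0.39, SE 0.10) and KEX2 (-0.36, SE 0.14) had the largest changes. With the trend on base composition removed only RAM1 and STE23 kept a call, and STE24 then stood at -0.001. AXL1, a protease that a cells use to mature their pheromone, had too few reads for the test, with 10 from the hybrid and 104 from the co-culture. Among filamentous growth genes 3 of 4 tested were lower, against the same 30.9%, and KSS1 is counted both here and among the shared genes. KSS1 entered the test through the co-culture alone. MSB2, a sensor at the cell surface, fell by 1.48 on the log2 scale (SE 0.08, adjusted p = 2.89e-27 by edgeR), and SVS1 fell by 0.68 (SE 0.06). CLN1 was at 0.11 and did not pass.

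**Figure D4:**
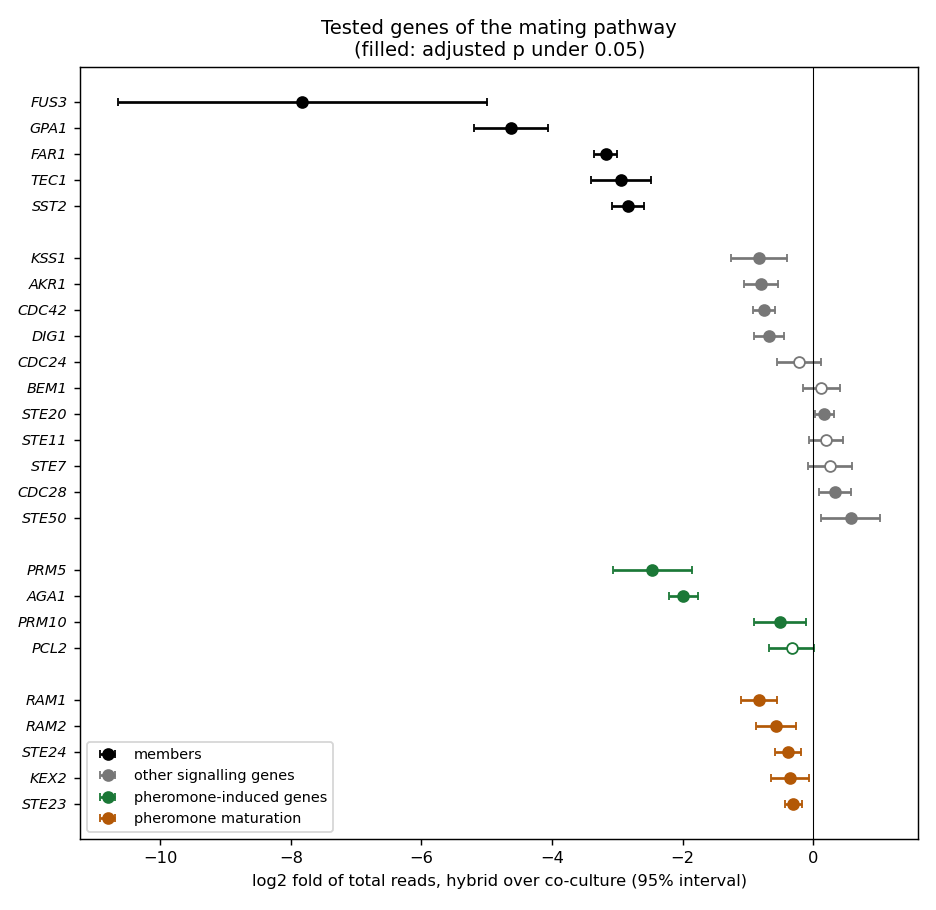
Log2 fold of total reads, hybrid over co-culture, with its 95% interval (x axis) for each tested gene of the pathway lists. Filled points passed an adjusted p of 0.05. The members lie at -2.84 and below, and the fitted value of FUS3 rests on 1 hybrid read.

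Haploid-specific genes outside the pathway were set beside the members. Of 5 listed, 4 were present and 3 tested, all called lower: RME1, a repressor of meiosis (-4.22, SE 0.57), NEJ1, which acts in the joining of broken DNA ends (-2.83, SE 0.19), and AMN1, which acts in daughter cell separation (-1.46, SE 0.09), all with adjusted p-values by edgeR of 6.07e-17 or less. RME1, with 7 hybrid and 135 co-culture reads, and NEJ1, with 74 and 500, entered the test through the co-culture alone, so the count of 3 is no support, and 30.9% of all gene pairs were lower. The full operator stood before RME1, NEJ1 and HO, and before none of the 16 shared pathway genes. With 1 mismatch it stood before 2 of these 16, STE7 and PTP3. At this level it also stood before 4 of 10 genes of pheromone maturation, the same share as in the members, and before 4 of 4 alpha cell genes. It stood before 4 of the 5 haploid-specific genes, and AXL1 is counted both there and among the genes of pheromone maturation. It stood before 0 of 7 a cell genes and 1 of 18 pheromone-induced genes. The sites of RME1 and NEJ1 are shown for comparison with those of the members above.
RME1 (VII:584277-584297, minus strand): gaTGTcacagattACATCAaa
NEJ1 (XII:675587-675607, plus strand): caTGTaaaaaaatACATCAat
Over the tested gene pairs with a window, 16 held the full operator and 3 of these (18.8%) were lower by more than 2 on the log2 scale. These 3 are GPA1, RME1 and NEJ1, which all entered the test through the co-culture alone. Of 2764 without it, 21 (0.76%) were lower by that much. The share called lower at any size was 37.5% with the operator (6 of 16) and 30.8% without, and at 1 mismatch it was 28.9% with and 31.2% without. FAR1, SST2 and TEC1 fell by that size and held no match.

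Outside all lists, the 6 called gene pairs with the log2 fold nearest to the median of the members were ICS2 (-3.14), HSP12 (-3.37), NDJ1 (-2.92), HSP26 (-2.92), YRO2 (-2.60) and YGL193C (-2.58). All 6 entered the test through the co-culture alone, with 18 (NDJ1) to 82 (YRO2) hybrid reads. Their falls are thus in part fixed by the filter. Likeness was the absolute difference in log2 fold over the 12 summed replicates, and ran from 0.04 for ICS2 to 0.60 for YGL193C. HSP12 and HSP26 encode small heat shock proteins and NDJ1 a telomere protein of meiosis. YGL193C is 19 bases away from IME4, a regulator of entry into meiosis, whose reads were also lower in the hybrid (-1.26, SE 0.11, adjusted p = 2.54e-17 by edgeR). Strandedness was not given, so reads at IME4 cannot be assigned to the strand of the gene.

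The co-culture then asked how the strains differed in these genes, each allele being read from its own haploid cells. All 7 members were tested on at least 20 reads. RM was higher for 4, BY was higher for SST2, and STE18 and KAR4 did not pass. Over all 3970 gene pairs RM was higher in 14.9% and lower in 14.4%. RM reads were 54.8% of all co-culture reads, a share that varies with the number of RM and BY cells, and TMM scaling of the allele columns centres the ratios on the typical gene pair.

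TEC1 had the largest ratio of the members. Of its 338 reads 247 came from RM, which is 73.1% (Clopper-Pearson 95% interval 68.0 to 77.7), and RM had more reads in 12 of 12 libraries. The RM-over-BY log2 ratio was 1.23 (SE 0.19, adjusted p = 5.97e-11 by edgeR), or 2.34-fold. Of the FUS3 reads 252 came from RM and 125 from BY (RM share 66.8%, 61.8 to 71.6), again with more RM reads in 12 of 12 libraries. Its log2 ratio was 0.80 (SE 0.17, adjusted p = 9.01e-06), or 1.74-fold. Both strains thus expressed the kinase and the filamentation factor, and RM cells had more transcript of each than BY cells relative to the typical gene.

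GPA1 and FAR1 differed less. For GPA1, 388 reads from RM against 263 from BY gave a log2 ratio of 0.35 (SE 0.12, adjusted p = 0.0170 by edgeR), and for FAR1, 1504 against 1113 gave 0.22 (SE 0.06, adjusted p = 0.00127). Both had more RM reads in 12 of 12 libraries, but most reads in the flask were RM. After scaling RM was higher in 4 of 4 summed replicates for GPA1 and in 3 of 4 for FAR1, with BY higher in the other. Both calls were lost with DESeq2 (p = 0.318 and 0.253) and without co-culture replicate 2 (p = 0.2 and 0.207), and that of GPA1 also without replicate 4 (p = 0.061) and without TMM scaling (p = 0.068). SST2 ran the other way, with 598 reads from BY and 507 from RM (RM share 45.9%, 42.9 to 48.9), more BY reads in 9 of 12 libraries and equal numbers in 2. Its log2 ratio was -0.45 (SE 0.09, adjusted p = 8.79e-06). KAR4 was at -0.74 on 76 reads (95% interval -1.46 to -0.01, adjusted p = 0.117) and STE18 at -0.10 on 62 reads (95% interval -0.90 to 0.70, adjusted p = 0.896).

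Other signalling genes differed between the strains in the same flask. Of 13 tested, RM was higher for 5 and lower for 1, where the shares over all gene pairs were 14.9% and 14.4%. STE7 was at 0.93 (SE 0.27), STE11 at -0.68 (SE 0.18), KSS1 at 0.63 (SE 0.26) and STE20 at 0.49 (SE 0.10), with adjusted p-values by edgeR of 0.00228, 0.00128, 0.0467 and 5.45e-06. Of these 4 calls, STE7, STE11 and KSS1 did not pass with DESeq2, nor KSS1 without TMM scaling. Of 13 pheromone-induced genes tested, RM was higher for 1 and lower for 3, against the same shares: it was higher for PRM10 (2.17, SE 0.34) and lower for FIG2 (-3.11, SE 1.01, on 29 reads), PRM2 (-0.74, SE 0.30) and AGA1 (-0.42, SE 0.11), of which PRM2 and AGA1 did not pass with DESeq2. The filamentation gene MSB2 was at 0.99 (SE 0.09, adjusted p = 1.14e-28), and SVS1 at 0.59 (SE 0.07).

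In the hybrid both alleles share the same cell, and 4 members had the 20 reads needed. FAR1 was the member that passed. RM supplied 194 of its 306 reads, or 63.4% (Clopper-Pearson 57.7 to 68.8), against 49.7% of all hybrid reads, and RM was higher in 8 of 8 summed replicates. The log2 ratio was 0.79 (SE 0.17, adjusted p = 4.62e-05 by edgeR), where 7.64% of 3967 gene pairs were called in this direction and 7.31% in the other. SST2, with 82 reads from BY and 81 from RM, stood at -0.02 (95% interval -0.47 to 0.44). TEC1 had 17 and 29 (0.75, -0.24 to 1.73) and GPA1 had 12 and 15 (0.29, -1.01 to 1.58), intervals that leave room for the ratios seen in the co-culture.

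Whether the RM-over-BY ratio differed between co-culture and hybrid was tested in a joint fit, in which 14.0% of 3883 gene pairs passed 5.18% in the direction of FAR1 and 8.86% in the other. The FAR1 ratio was lower in the co-culture by 0.54 on the log2 scale (95% interval of the difference -0.89 to -0.18, adjusted p = 0.0223 by edgeR). Seen by allele, reads were scaled to the total reads of each allele, without TMM. BY FAR1 then had 11 times as many reads in the co-culture as in the hybrid (95% counting interval 9.03 to 13.5). RM FAR1 had 6.98 times as many (6.0 to 8.14). The call was lost without hybrid replicate 1 (-0.43, adjusted p = 0.111) or 6 (-0.49, adjusted p = 0.0768). Without TMM scaling the median over all gene pairs moved from 0.01 to -0.10, and FAR1 moved with it to -0.65.

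For the other members the difference did not pass, which does not show that the alleles changed alike. For SST2 it was -0.40 (95% interval -0.88 to 0.08, adjusted p = 0.319), with ratios of 8.06 for BY (6.39 to 10.3) and 5.63 for RM (4.45 to 7.21). For GPA1 it was 0.08 (-1.05 to 1.20), with 24.2 for BY and 23.3 for RM, and for TEC1 0.51 (-0.43 to 1.45). The ratios by allele carry no TMM scaling, and without it the GPA1 difference was -0.039. FUS3 had 1 BY and no RM read in the hybrid, so its RM allele was at least 75.6-fold higher in the co-culture, from a floor of 3 reads over the group. Both alleles of every member present had fewer reads in the hybrid. For STE18, FUS3 and KAR4 this rests on 0 or 1 hybrid reads per allele, and the share over all gene pairs was not counted.

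**Figure D5:**
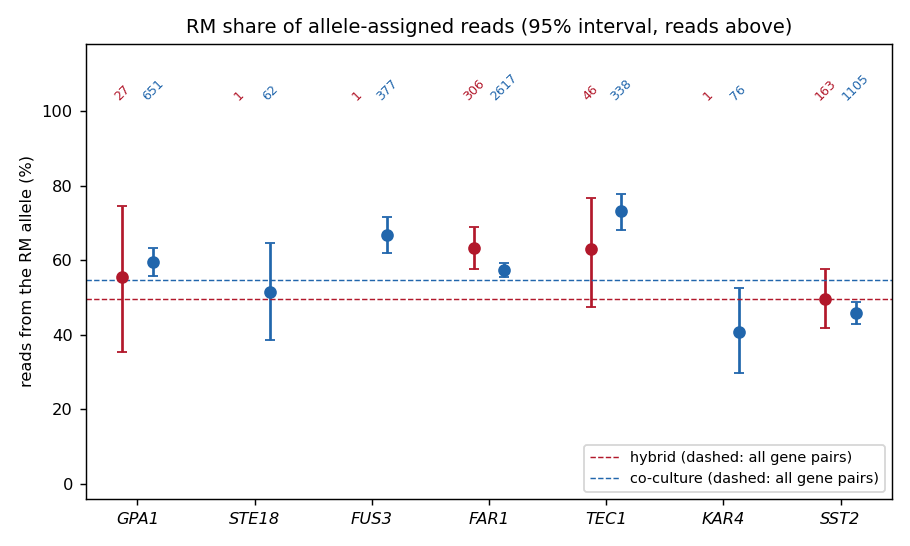
Share of reads from the RM allele (y axis, percent) of each member in hybrid (red) and co-culture (blue), with Clopper-Pearson 95% intervals and the number of reads above. Dashed lines give the share over all gene pairs, and no share is drawn under 20 reads. The intervals of FAR1 in the hybrid and of TEC1, FUS3, GPA1 and FAR1 in the co-culture lie above the line of their group, and those of SST2 and KAR4 in the co-culture lie below it.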

How the data were processed

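The deposited files hold raw read counts for the BY and the RM allele of each gene pair over sites that differ between the strains, per the file headers. The aligner, build, read filters and strandedness behind them were not given in the sources used here. The members and gene lists were chosen with earlier results of these data known. Within each group, libraries with no difference in total counts beyond counting error (chi-square p of 0.05 or more, on gene pairs with 20 reads or more in 2 libraries, where others differed at p under 0.001) were summed by complete linkage. In the hybrid this joined libraries 3 and 6, 7 and 8, and 10 to 12, and in the co-culture 2 to 6, 7, 8, 10 and 11, and 9 and 12.

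Totals were tested with edgeR 4.0.16 (R 4.3.3, quasi-likelihood F test, TMM, Benjamini-Hochberg, 0.05) for gene pairs that reached a mean of 10 reads per library in either group. Allele columns were tested with the summed replicate as a block and at least 20 reads in each group fitted. DESeq2 1.42.0 was an alternative, and another removed the trend of log2 values on the A share of the coding sequence. The tests were checked on simulated data. Symbols and windows came from R64 (4325 of 4442 gene pairs matched). All members were named, up to 4 genes of each other list with the largest change in a comparison, and the 6 gene pairs nearest in log2 fold, and other names are said to be chosen after their values were seen or stand beside a count.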

Additional observations from a re-analysis of the deposited data

Results flagged for a closer look

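Of 25 groups of values, 7 had a sample apart from the rest by Dixon's criterion, which chance meets in about 1 in 20. GPA1 stood at 199 CPM in co-culture replicate 1, below the other three at 264 to 273. FAR1 stood at 1082 CPM in co-culture replicate 2 and TEC1 at 154 CPM in replicate 3, each above the rest. STE18, FUS3 and KAR4 each had a single hybrid read, which placed 1 sample at 2.55, 4.60 and 1.43 CPM with the others at 0. The RM share of FAR1 was 80.0% in hybrid replicate 1, against 56.8 to 66.7% in the others, and all 8 lay above the share of all reads.

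The FAR1 ratio of RM to BY differed between the groups by -0.54 on the log2 scale (adjusted p = 0.0223, edgeR), and without hybrid replicate 1 it stood at -0.43 with an adjusted p of 0.111. RM was higher after scaling in 8 of 8 hybrid replicates and in 3 of 4 co-culture replicates.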

How the results depend on the processing

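All 5 tested members stayed lower in the hybrid under every alternative and with any summed replicate left out, and all 7 were lower with no read minimum. The number of gene pairs called in total expression ran from 1461 to 1902 over 8 alternatives and from 1502 to 1695 with a replicate left out (1687 as reported). The replicate numbers do not pair the libraries (r from -0.02 to 0.07 over 12 pairs), and the fit of 12 libraries with the number as a block called 1777, against 1755 without it. Summing libraries on their allele counts, an alternative chosen after seeing the data, called 1712.

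DESeq2 called 476 gene pairs in the co-culture ratio (1164 as reported), 236 in the hybrid ratio (593) and 302 in the difference (545), and the cause was not tested. Leaving out a replicate gave 769 to 1090 in the co-culture ratio, the lowest without co-culture replicate 2, and 461 to 571 and 402 to 539 in the other two. Without TMM scaling the calls split into 1062 higher and 691 lower for total expression (825 and 862 as reported), 482 and 705 for the co-culture ratio (593 and 571), and 230 and 343 for the difference (344 and 201). Some ratios that did not pass changed sign: GPA1 in the hybrid was -0.011 with DESeq2, its difference was -0.039 without TMM scaling, and STE18 in the co-culture was 0.017 with DESeq2. With a replicate left out, these ran from -0.007 to 0.541, from -0.175 to 0.37 and from -0.315 to 0.403, and SST2 in the hybrid from -0.206 to 0.105. With 1 mismatch allowed, 4 of the 10 genes held the operator (2 as reported). Depth limits the hybrid ratios of GPA1 and TEC1 and gives none for STE18, FUS3 and KAR4.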
